A study of Mus musculus with 12 samples.

Results

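Liver RNA from mice fed a high-fat diet (HFD) and given fenofibrate was compared with liver RNA from mice fed the same diet without the drug. The comparison holds 8 of the 12 libraries of the study: all 4 labelled as fenofibrate and all 4 labelled as HFD alone. Both groups ate the high-fat diet for 14 weeks, and the fenofibrate group was gavaged with the drug over weeks that followed the first 10 and lasted 4. The study assigned 10 mice to each group. The 4 Control libraries, from mice on a normal diet for 14 weeks, entered the gene filter, the scaling and the estimate of spread but not the contrast. Their means are given as a reference level without a test. Strain, sex, age and drug dose are not stated in the labels, and neither is a vehicle gavage for the HFD mice, so the drug and the handling that came with it cannot be told apart.

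Fenofibrate is a lipid-lowering drug whose active acid form binds PPARA, a nuclear receptor that is abundant in hepatocytes. PPARA pairs with a retinoid X receptor and binds direct repeats of a short half-site in the control regions of its target genes. Those targets are best known for the uptake, activation and oxidation of fatty acids in mitochondria, peroxisomes and microsomes, for ketone body synthesis and for the coating of lipid droplets. In the fatty liver of a high-fat diet, triglyceride is stored in such droplets.

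Positions are on GRCm38, which the deposited tables match, and the genes given with a position are protein-coding. Levels are in CPM (counts per 1000000 reads of a library, whose size was scaled by edgeR's TMM factor), and values listed for a group are in the order of libraries 1 to 4. A log2 fold change is fenofibrate minus HFD and is given ± SE. Adjusted p-values come from the quasi-likelihood test of edgeR, adjusted by the Benjamini-Hochberg method over all genes tested, with 4 libraries against 4, and "rose" and "fell" are used for genes with an adjusted p under 0.05. Total counts were 15797016 to 16983854 in the HFD libraries and 16856634 to 18514481 in the fenofibrate libraries. No label says which libraries shared a cage, a dissection or a sequencing run, and a p-value here reflects only the spread from library to library.

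The libraries were liver by their markers, with RNA of other tissues in 2 of them. Hepatocyte markers summed to 136033 to 145152 CPM of total counts in HFD and 133161 to 149556 CPM with fenofibrate. Of 17 pancreatic acinar genes listed, 11 were at 0 in every library but fenofibrate library 1, where the 17 summed to 2465 CPM against 9.92 to 31.8 CPM in the other 7. The exocrine genes Prss2, Cpb1 and Pnlip were at 199.5, 159 and 291 CPM there and at 0 in the other 7 libraries. The sum of striated muscle genes was 345 CPM in that library and 270.3 CPM in fenofibrate library 3, with no more than 2.15 CPM elsewhere, and the muscle genes Ckm, Mb and Myh2 were at 0 in the other 6 libraries. The erythroid sum was 1193 CPM in fenofibrate library 1, with 203 to 453 CPM elsewhere. HFD library 1 had the lowest Kupffer cell sum (353 CPM against 744 to 887 in the other HFD libraries) and the lowest sinusoidal endothelial sum (246 CPM against 496 to 522). The 8 libraries held at most 4 reads of Xist and at least 686 of the Y-linked gene Ddx3y, the pattern of male tissue. Results are therefore also given without fenofibrate libraries 1 and 3 where these matter.

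**Figure D1:**
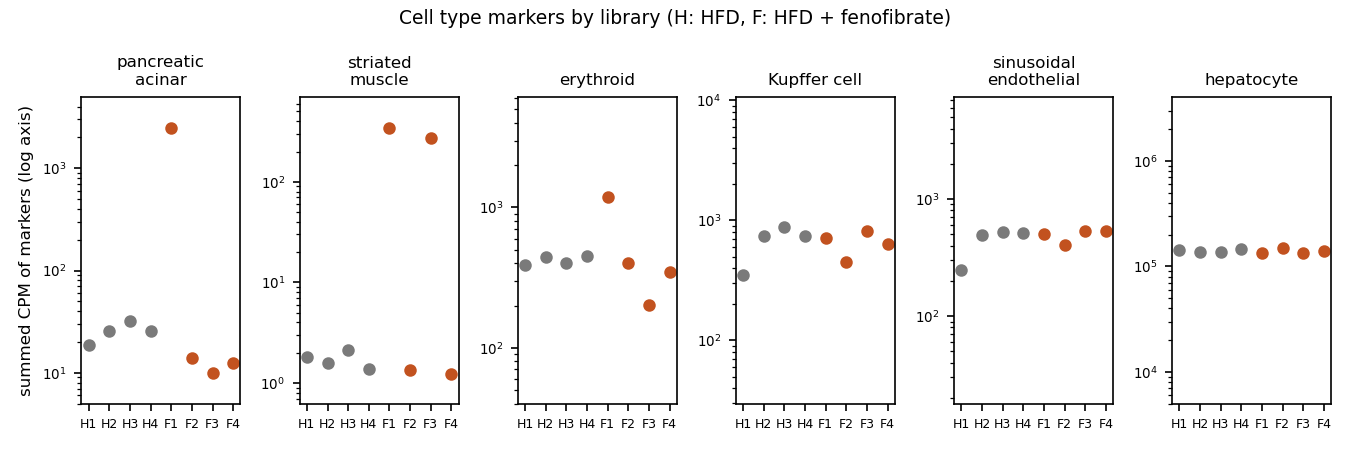
Summed CPM of marker genes of 6 cell types in the 4 HFD libraries (H1 to H4, grey) and the 4 fenofibrate libraries (F1 to F4, orange), on log axes. Pancreatic markers stand at 2465 CPM in F1 only and striated muscle markers at 345 and 270.3 CPM in F1 and F3, while hepatocyte markers lie between 133161 and 149556 CPM in all 8.

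Fenofibrate moved many liver genes by modest amounts. Of 13477 genes tested, 928 rose and 888 fell, which is 13.5% of the genes tested (6.89% rose and 6.59% fell). Of these, 136 rose and 118 fell at least 2-fold. The median log2 fold change over all genes was 0.01. The 4 and 4 libraries did not overlap for 2794 genes, or 20.7%. Without TMM scaling, on library totals alone, the median log2 fold change was 0.179 and 2059 genes rose and 451 fell, so that 82% of the calls were rises instead of 51.1%. The balance of rises and falls thus depends on the scaling, and all values below are on the TMM scale. The counts also rest on single libraries: leaving out fenofibrate library 3 gave 282 and 328, fenofibrate library 1 464 and 434, HFD library 1 436 and 419, HFD library 4 444 and 485, and HFD library 2 571 and 581.

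Much of the response was larger in fenofibrate libraries 1 and 3 than in libraries 2 and 4. Of the 1816 genes that rose or fell, both library 1 and library 3 lay farther from the HFD mean than libraries 2 and 4 for 750 genes (41.3%), and the reverse held for 78 genes (4.3%). The same measures over the 11661 genes that did not pass were 23.7% and 11.4%. Over the 1816 genes the median shift from the HFD mean, in log2(CPM + 1) and in the direction of the call, was 0.58 for libraries 1 and 3 and 0.43 for libraries 2 and 4. These are the same 2 libraries that held striated muscle RNA, and the part of that RNA in the response was not tested. With both left out, 55 genes rose and 69 fell, or 0.898% of the 13811 genes tested then, and 119 of these 124 were among the 1816, each with the same sign.

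**Figure D2:**
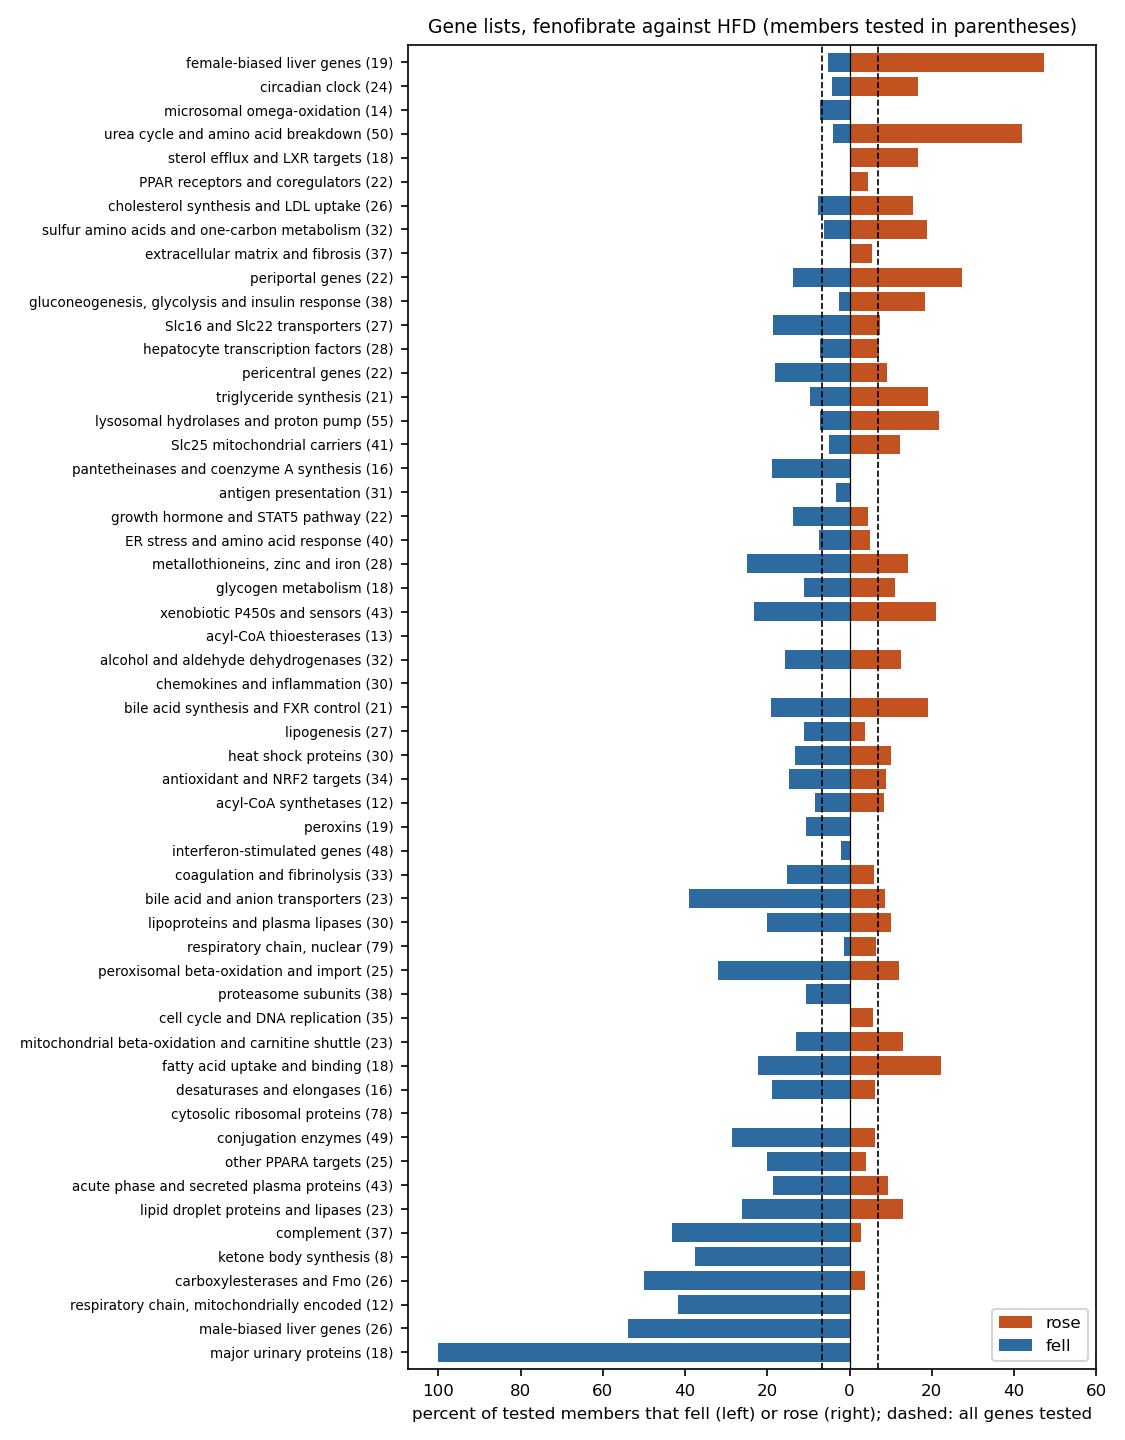
Percent of the tested members of 55 gene lists that rose (orange, right) or fell (blue, left), ordered by median log2 fold change, with the shares of all genes tested as dashed lines (6.89% and 6.59%). Major urinary proteins fell in all 18 tested members, and 21 of 50 genes of the urea cycle and amino acid breakdown rose.

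At the lipid droplet, the coat protein gene Plin2 fell and the main lipase gene Pnpla2 rose, while most genes of the list did not pass. Plin2 (ENSMUSG00000028494, chromosome 4, 86648386 to 86670060), the coat protein that hepatocytes lay on stored triglyceride, was at 1285, 876, 795 and 1249 CPM in HFD and 392, 383, 305 and 328 CPM with fenofibrate. No fenofibrate library reached the lowest HFD library (log2 fold change -1.58 ± 0.24, adjusted p = 0.00139; Control mean 859 CPM). G0s2 (ENSMUSG00000009633, chromosome 1, 193272161 to 193273217), an inhibitor of that lipase, was at 685, 249.7, 268 and 561 CPM in HFD and 60.3, 164, 60 and 51.2 CPM with fenofibrate (log2 fold change -2.40 ± 0.46, adjusted p = 0.00483). Its fenofibrate library 2 stood above the other 3, and without libraries 1 and 3 the gene did not pass (-2.03, adjusted p = 0.121). Pnpla2, the adipose triglyceride lipase, was at 71, 80.6, 65.4 and 86.2 CPM in HFD and 138, 106, 162 and 115 CPM with fenofibrate, with no overlap (log2 fold change 0.78 ± 0.16, adjusted p = 0.00586). Of 23 tested genes of droplet proteins and lipases, 3 rose and 6 fell, with a median of -0.32, and the shares over all genes were 6.89% and 6.59%. Fitm1, which helps droplets bud from the endoplasmic reticulum (-0.70 ± 0.14), and the droplet hydrolase Ldah (-0.37 ± 0.11) also fell, and the coat protein Plin3 rose (0.40 ± 0.12). The droplet-fusion gene Cidec (-0.32 ± 0.21, adjusted p = 0.302) and Hilpda, an inhibitor of the lipase (-0.44 ± 0.26, adjusted p = 0.268), did not pass. Cidea was too rare to test, with 0 to 4 reads in each library. With libraries 1 and 3 left out, 0 rose and 1 fell in the list, which was Plin2 (-1.56, adjusted p = 0.033).

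Several genes of lipid uptake rose and several of lipid binding inside the cell fell. Slc27a1 (ENSMUSG00000031808, chromosome 8, 71568882 to 71587302), a fatty acid transport protein most abundant in muscle and fat, was at 15.8, 12.3, 13.4 and 16.1 CPM in HFD and 51.3, 33, 87.3 and 46 CPM with fenofibrate (log2 fold change 1.92 ± 0.22, adjusted p = 0.00028). Vldlr, the receptor for triglyceride-rich lipoproteins, was at 1.75, 1.71, 4.23 and 1.36 CPM in HFD and 11.6, 7.08, 12.6 and 11.3 CPM with fenofibrate (log2 fold change 2.23 ± 0.32, adjusted p = 0.00112). Neither gene overlapped between the groups, and both passed without libraries 1 and 3, at 1.47, adjusted p = 0.00058 for Slc27a1 and 2.02, adjusted p = 0.03 for Vldlr. The rise of Slc27a1 was highest in library 3 and was larger in libraries 1 and 3, the libraries with muscle genes, than in libraries 2 and 4. Cd36, a fatty acid translocase, was at 24.1, 66.3, 57.5 and 54.1 CPM in HFD and 86, 72, 83.8 and 97.9 CPM with fenofibrate (log2 fold change 0.75 ± 0.21, adjusted p = 0.0298), and its call was lost in 6 of the alternatives described at the end. Fabp1 (ENSMUSG00000054422, chromosome 6, 71199827 to 71205023), the most abundant fatty acid binding protein of hepatocytes and a known PPARA target, was at 4509, 3213, 3107 and 4902 CPM in HFD and 1227, 1559, 1485 and 1436 CPM with fenofibrate (log2 fold change -1.46 ± 0.22, adjusted p = 0.00161; Control mean 1078 CPM). The highest fenofibrate library of Fabp1 was below the lowest HFD library by a wide gap, and the gene passed without libraries 1 and 3 (-1.39, adjusted p = 0.0424). Acbd5, which holds peroxisomes near the endoplasmic reticulum (-0.70 ± 0.14), and the sterol carrier protein gene Scp2 (-0.53 ± 0.13) fell, and Got2, an aminotransferase also found at the plasma membrane, rose (0.43 ± 0.09). In all, 4 of 18 tested uptake and binding genes rose and 4 fell, against 6.89% and 6.59% over all genes. Without libraries 1 and 3 the counts were 2 and 1.

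Because Fabp1 is a textbook PPARA target that fell, the 250 bases before its start site are shown, from the RefSeq promoter set on GRCm38.p6 (chr6:71199629-71199878, plus strand). The start site of that set lies inside the gene position given above, which begins at 71199827. Capitals mark a match to the direct repeat AGGNCA, any base, AGGNCA on the opposite strand, 67 to 55 bases before the start site. The same match lies before Cyp2d40 (chr15:82764207-82764259, minus strand) and Clock (chr5:76303596-76303648, minus strand), the other named genes that hold it, which also fell. The 3 sequences read 5′ to 3′ on the strand of the gene.
Fabp1: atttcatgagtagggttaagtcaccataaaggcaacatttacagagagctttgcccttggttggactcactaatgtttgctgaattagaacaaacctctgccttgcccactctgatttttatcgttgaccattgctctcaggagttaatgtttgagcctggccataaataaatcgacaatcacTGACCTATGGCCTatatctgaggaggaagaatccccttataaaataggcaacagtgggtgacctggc
Cyp2d40: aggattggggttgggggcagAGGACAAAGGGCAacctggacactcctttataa
Clock: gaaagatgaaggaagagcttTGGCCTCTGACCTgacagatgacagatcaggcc
In that window the repeat, searched on both strands, was present for 0.4% of the 27025 genes in the promoter set. It was present for 4 of 664 genes that fell and 0 of 698 that rose among those with a promoter in the set. A match is a description of the letters only.

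**Figure D3:**
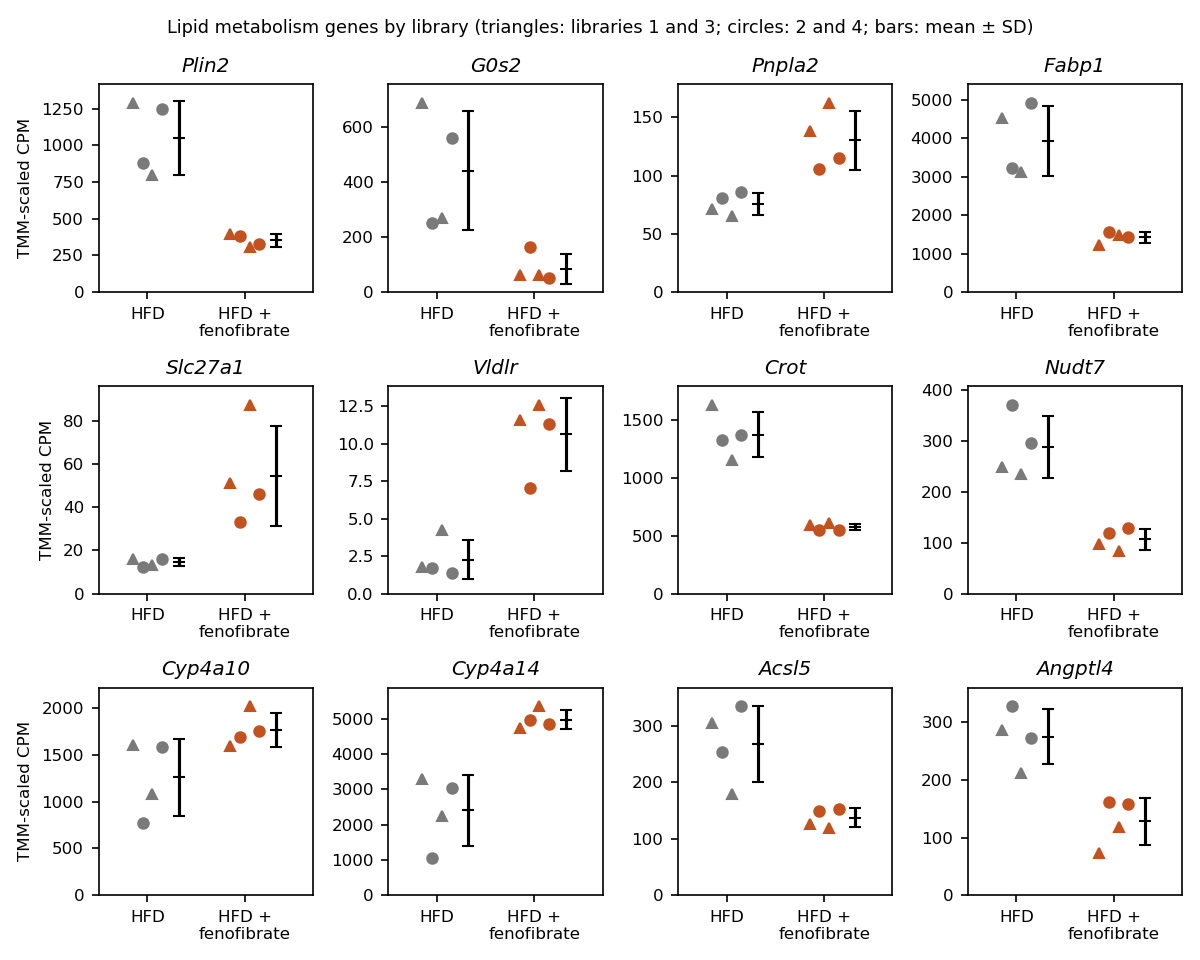
TMM-scaled CPM of 12 lipid genes in each HFD library (grey) and fenofibrate library (orange), with axes from 0, triangles for libraries 1 and 3, circles for libraries 2 and 4, and the mean ± SD of each group beside the points (n = 4). Plin2, Fabp1, Crot and Nudt7 are lower in every fenofibrate library than in any HFD library, Slc27a1 and Vldlr are higher, and Cyp4a10 overlaps.

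Peroxisomal genes fell more often than they rose. Crot (ENSMUSG00000003623, chromosome 5, 8966033 to 8997324), which hands shortened acyl groups from the peroxisome to carnitine, was at 1629, 1327, 1155 and 1371 CPM in HFD and 591, 549, 605 and 549.5 CPM with fenofibrate (log2 fold change -1.26 ± 0.20, adjusted p = 0.00225). The 4 fenofibrate values lay close together, and the gene passed without libraries 1 and 3 (-1.31, adjusted p = 0.037). Nudt7 (ENSMUSG00000031767, chromosome 8, 114133557 to 114154739), a peroxisomal coenzyme A diphosphatase, was at 249, 370, 235 and 295 CPM in HFD and 96.2, 118, 82.9 and 128 CPM with fenofibrate (log2 fold change -1.43 ± 0.20, adjusted p = 0.00095; with libraries 2 and 4 only, -1.22, adjusted p = 0.0354). All of its fenofibrate libraries lay below the HFD range. Abcd3, which imports acyl-CoA (-0.79 ± 0.15), the coenzyme A carrier Slc25a17 (-0.65 ± 0.12), the racemase Amacr (-0.52 ± 0.10) and the thiolase Acaa1b (-0.57 ± 0.15) fell as well. The bifunctional enzyme gene Ehhadh did not pass (-0.67 ± 0.35, adjusted p = 0.211). Of 25 tested genes of this list 3 rose and 8 fell, against 6.89% and 6.59% over all genes. Without libraries 1 and 3 the counts were 0 and 2. Of 19 peroxins, the proteins that build peroxisomes, 0 rose and 2 fell, Pex11a (-0.65 ± 0.14) and Pex13 (-0.67 ± 0.15), and edgeR gave no call among them without libraries 1 and 3.

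Microsomal omega-hydroxylases, among the best-known PPARA targets of rodent liver, had higher means and did not pass. Cyp4a14 was at 3287, 1055, 2234 and 3037 CPM in HFD and 4739, 4961, 5357 and 4862 CPM with fenofibrate. The 4 and 4 libraries did not overlap, HFD library 2 was far below the other HFD libraries, and the adjusted p was 0.0844 at 1.05 ± 0.39. Cyp4a10 was at 1612, 769.8, 1079 and 1591 CPM in HFD and 1594, 1693, 2022 and 1763 CPM with fenofibrate, with overlap (log2 fold change 0.49 ± 0.22, adjusted p = 0.149). Cyp4a14 passed in 3 of the alternatives (library totals, no filter on low counts, and the fit on the 8 libraries compared) and Cyp4a10 in 1 (library totals). These genes have near-identical copies, so their single values are uncertain. Of 14 tested genes of omega-oxidation 0 rose and 1 fell, Cyp4v3 (-0.52 ± 0.13), and the median was 0.26. The shares over all genes were 6.89% and 6.59%. Por, the reductase that supplies electrons to microsomal P450 enzymes, was at 238, 334, 305 and 304 CPM in HFD and 629, 455, 754 and 604 CPM with fenofibrate and rose in all 4 libraries beyond the HFD range (log2 fold change 1.05 ± 0.17, adjusted p = 0.00217). It did not pass without libraries 1 and 3 (0.85, adjusted p = 0.0581).

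Mitochondrial oxidation changed in both directions and ketone body genes fell or did not pass. Slc22a5, the plasma membrane carnitine transporter, was at 85.1, 60, 50.3 and 80.8 CPM in HFD and 35.4, 30.1, 28.9 and 38.4 CPM with fenofibrate (log2 fold change -1.06 ± 0.19, adjusted p = 0.00356). Acad10 was at 22.9, 32.4, 26.2 and 22 CPM in HFD and 39.7, 40.1, 46.3 and 46.7 CPM with fenofibrate, without overlap (log2 fold change 0.74 ± 0.13, adjusted p = 0.00281), and passed without libraries 1 and 3 (0.75, adjusted p = 0.0431). The dehydrogenases Acads (0.36 ± 0.11) and Acad12 (0.52 ± 0.16) rose, and Acad11 (-0.58 ± 0.12) and the reductase Decr1 (-0.59 ± 0.14) fell. Cpt1a, the gate to mitochondrial oxidation, did not pass (0.29 ± 0.12, adjusted p = 0.116). In this list 3 of 23 rose and 3 fell, against 6.89% and 6.59% over all genes. Slc16a1, a ketone body and lactate exporter (-0.98 ± 0.20), and the dehydrogenases Bdh1 (-0.47 ± 0.14) and Bdh2 (-0.78 ± 0.18) fell, and 0 of 8 ketone genes rose. The calls of Acads, Acad12 and Bdh1 were each lost in 10 or more alternatives. Without libraries 1 and 3 the counts were 1 and 0 for mitochondrial oxidation, and edgeR called 0 ketone genes.

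Among other PPARA targets, more fell than rose and most did not pass. Angptl4, a secreted inhibitor of lipoprotein lipase, was at 287, 328, 212 and 273 CPM in HFD and 73.9, 161, 119 and 158 CPM with fenofibrate (log2 fold change -1.11 ± 0.21, adjusted p = 0.00486). Vnn1, a pantetheinase, was at 191, 151, 145 and 253 CPM in HFD and 99.9, 72.2, 71 and 126 CPM with fenofibrate (log2 fold change -1.00 ± 0.26, adjusted p = 0.0219). Neither gene overlapped between the groups, and neither passed without libraries 1 and 3 (-0.78, adjusted p = 0.0721 and -0.89, adjusted p = 0.216). Pdk4, a kinase that turns down glucose oxidation in fasting (-1.02 ± 0.61, adjusted p = 0.265), and the fasting hormone Fgf21 (-1.47 ± 0.54, adjusted p = 0.0813) did not pass. Fgf21 was at 20.2, 7.19, 5.95 and 15.4 CPM in HFD and 3.01, 7.62, 4.38 and 2.71 CPM with fenofibrate, so that the HFD libraries spread widely. The receptor itself, Ppara, was at 51.5, 70.3, 49.7 and 57.4 CPM in HFD and 46.9, 43, 54.2 and 56.3 CPM with fenofibrate (log2 fold change -0.19 ± 0.17, adjusted p = 0.478), and its partner Rxrb rose slightly (0.28 ± 0.09). In the list of further targets, 1 of 25 rose (Por) and 5 fell, against 6.89% and 6.59% over all genes. Without libraries 1 and 3 only Fabp1 passed. The acyl-CoA synthetase Acsl5 was at 304, 253, 179 and 334 CPM in HFD and 126, 149.6, 119 and 153 CPM with fenofibrate (log2 fold change -0.97 ± 0.19, adjusted p = 0.00523), and Acsf3, a mitochondrial synthetase, rose (0.62 ± 0.10). Of 13 acyl-CoA thioesterases 0 passed, with Acot1 at -0.16 ± 0.34. Of these, 4 were at an unadjusted p under 0.05, with 1 called by DESeq2 and 0 by limma-voom.

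Synthesis of triglyceride and sterols moved in single steps. Gpat3 (ENSMUSG00000029314, chromosome 5, 100845713 to 100899102), a glycerol phosphate acyltransferase, was at 3.64, 2.53, 3.87 and 3.22 CPM in HFD and 10.4, 8.1, 8.86 and 7.79 CPM with fenofibrate (log2 fold change 1.41 ± 0.21, adjusted p = 0.0012; with libraries 2 and 4 only, 1.26, adjusted p = 0.0323). Every fenofibrate library was above every HFD library. Mogat1, a monoacylglycerol acyltransferase, was at 0.607, 1, 0.491 and 0.434 CPM in HFD and 3.26, 1.8, 4.19 and 1.33 CPM with fenofibrate, highest in the libraries with muscle genes (log2 fold change 2.05 ± 0.40, adjusted p = 0.0055), and did not pass without them (1.29, adjusted p = 0.173). Of 21 tested genes of triglyceride synthesis 4 rose and 2 fell. Lipogenic enzymes mostly did not pass: Fasn was at 0.55 ± 0.21 (adjusted p = 0.0917), the regulator Srebf1 at 0.45 ± 0.26 (adjusted p = 0.251) and the desaturase Scd1 at -0.67 ± 0.27 (adjusted p = 0.107). Elovl3 (-1.50 ± 0.37), Elovl6 (-0.55 ± 0.14) and Hsd17b12 (-0.79 ± 0.12), which lengthen fatty acids, and the NADPH source Me1 (-0.70 ± 0.22) fell. The calls of Me1 and Elovl6 were lost in 11 and 7 alternatives. In lipogenesis 1 of 27 tested genes rose and 3 fell, and among desaturases and elongases 1 of 16 rose and 3 fell. The shares over all genes were 6.89% and 6.59%. In sterol synthesis the regulator Srebf2 rose (0.55 ± 0.15), and Sc5d (-0.49 ± 0.10) and Hmgcs1 (-0.71 ± 0.21) fell, with 4 of 26 rising and 2 falling. The transfer protein Pltp (0.93 ± 0.25), the cholesterol exporter of lysosomes Npc1 (0.39 ± 0.11) and the HDL receptor Scarb1 (0.49 ± 0.15) were the 3 of 18 efflux genes that rose, and 0 fell. With fenofibrate libraries 1 and 3 left out, Gpat3 was the only call in these lists.

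Bile acid genes changed in their making and in their transport. Cyp7a1 (ENSMUSG00000028240, chromosome 4, 6265612 to 6275633), the rate-limiting enzyme, was at 37.1, 31, 21.7 and 71.4 CPM in HFD and 77.9, 161, 86.2 and 165 CPM with fenofibrate (log2 fold change 1.60 ± 0.40, adjusted p = 0.018). It was higher in fenofibrate libraries 2 and 4 than in 1 and 3 and passed without the latter (2.02, adjusted p = 0.0417). Cyp8b1, which directs synthesis to cholic acid, was at 449, 305, 302 and 449 CPM in HFD and 439, 849, 714 and 534 CPM with fenofibrate (log2 fold change 0.75 ± 0.23, adjusted p = 0.0412), a call lost in 9 alternatives. Akr1c6 (-1.05 ± 0.18) and Cyp7b1 (-0.65 ± 0.18) fell, and the FGF receptor Fgfr4 rose (0.41 ± 0.12). Abcb11 (ENSMUSG00000027048, chromosome 2, 69238282 to 69342616), the bile salt export pump, was at 521, 509.9, 541 and 463 CPM in HFD and 306, 330.4, 228 and 371 CPM with fenofibrate (log2 fold change -0.72 ± 0.13, adjusted p = 0.00346; with libraries 2 and 4 only, -0.53, adjusted p = 0.0652). Among 23 tested transporters of bile acids and organic anions, 2 rose and 9 fell, against 6.89% and 6.59% over all genes. Abcg2, an efflux pump, was at 133, 119.6, 90 and 99.2 CPM in HFD and 55.7, 63.3, 59.6 and 53.6 CPM with fenofibrate (log2 fold change -0.93 ± 0.15, adjusted p = 0.00196), and Slco1a1, an uptake carrier that is male-biased in mouse liver, was at 563, 552, 380.2 and 431 CPM in HFD and 115, 275, 165 and 235 CPM with fenofibrate (log2 fold change -1.29 ± 0.22, adjusted p = 0.00286). Both passed without libraries 1 and 3 (-0.91, adjusted p = 0.0473 and -0.91, adjusted p = 0.0323). Slc22a28 fell furthest of the carriers (-2.56 ± 0.24), and Slc10a2 (-1.28 ± 0.25) and Slc22a7 (-1.53 ± 0.30) fell too.

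Among genes of plasma lipoproteins, Lpl rose, Mttp, Lipc and Apoa4 fell, and most did not pass. Lpl (ENSMUSG00000015568, chromosome 8, 68880491 to 68907448), lipoprotein lipase, is low in adult liver and high in muscle and fat, and was at 17.6, 19.1, 23.4 and 18.8 CPM in HFD and 76.4, 39.5, 97.2 and 38.4 CPM with fenofibrate (log2 fold change 1.67 ± 0.27, adjusted p = 0.00196). Libraries 1 and 3, which held striated muscle RNA, were the highest, and in the fit on libraries 2 and 4 the rise was smaller and still passed (0.98, adjusted p = 0.0285). Mttp, which loads lipid onto nascent particles (-0.47 ± 0.12), hepatic lipase Lipc (-0.61 ± 0.12) and Apoa4 (-1.02 ± 0.19) fell. Apoa1 (0.22 ± 0.16), Apoa5 (-0.22 ± 0.10) and Apoc3 (-0.21 ± 0.13) did not pass, with adjusted p = 0.373, 0.14 and 0.311. In all 3 of 30 rose and 6 fell, against 6.89% and 6.59% over all genes. Without libraries 1 and 3 the counts were 1 and 0, with Mttp at -0.36, adjusted p = 0.261, Lipc at -0.47, adjusted p = 0.128 and Apoa4 at -0.77, adjusted p = 0.113.

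Among genes that clear nitrogen, rises far outnumbered falls, and 27 of 50 members did not pass. Of 50 tested genes of the urea cycle and amino acid breakdown 21 rose and 2 fell, with a median of 0.23, against 6.89% and 6.59% over all genes. Cps1 (ENSMUSG00000025991, chromosome 1, 67123026 to 67231259), the entry enzyme of the urea cycle in mitochondria, was at 2676, 2304, 2283 and 1985 CPM in HFD and 4507, 5479, 4896 and 3326 CPM with fenofibrate (log2 fold change 0.98 ± 0.14, adjusted p = 0.00115). Ass1, the next cytosolic step, was at 1334, 1291, 1298 and 1091 CPM in HFD and 2842, 2825, 2378 and 2235 CPM with fenofibrate (log2 fold change 1.04 ± 0.13, adjusted p = 0.00063). The groups did not overlap for either gene, and the fenofibrate level of both was below the Control mean (4948 and 3193 CPM). The alanine aminotransferases Gpt2 (1.09 ± 0.15) and Gpt (0.85 ± 0.13), proline dehydrogenase Prodh (0.81 ± 0.13) and Asl (1.31 ± 0.15) rose as well. All 6 passed without libraries 1 and 3, where 7 of the list rose and 0 fell. Methionine and one-carbon genes followed with 6 of 32 rising and 2 falling, among them Mat1a (0.62 ± 0.14), Ahcy (0.49 ± 0.11) and Bhmt2 (0.52 ± 0.10) with a rise and Gclc, the rate-limiting enzyme of glutathione synthesis, with a fall (-0.74 ± 0.19). Sugar metabolism and insulin response had 7 rises and 1 fall among 38, including the pseudokinase gene Trib3 (1.12 ± 0.23), the gluconeogenic coactivator Crtc2 (0.57 ± 0.12) and Igfbp2 (0.70 ± 0.15). These 2 lists depended more on libraries 1 and 3. With those left out, the methionine and one-carbon list had 1 rise, Bhmt2 (0.61, adjusted p = 0.033), and 0 falls. The sugar and insulin list then had 0 rises and 0 falls.

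The major urinary protein genes (Mup), a cluster on chromosome 4 that encodes pheromone carriers secreted by the male mouse liver, changed in one direction. All 18 tested members fell, with a median log2 fold change of -1.90, and 17 of them did not overlap between the groups. Their share of all counts was 3.24%, 2.96%, 2.75% and 2.6% in the HFD libraries and 0.732%, 1.51%, 0.839% and 1.26% with fenofibrate. Mup17 (ENSMUSG00000096688, chromosome 4, 61591929 to 61595871) was at 892, 1333, 981 and 684 CPM in HFD and 61.1, 149.8, 55.2 and 145 CPM with fenofibrate (log2 fold change -3.24 ± 0.31, adjusted p = 4.9e-05; Control mean 39.7 CPM), and Mup3 was at 16709, 11436, 11998 and 13050.2 CPM in HFD and 3518, 7348, 3529 and 6197 CPM with fenofibrate (log2 fold change -1.37 ± 0.22, adjusted p = 0.00206; Control mean 7942 CPM). In both genes libraries 1 and 3 were the lowest of all, and without them 12 of the 18 still fell, with a median of -1.42. Reads can be split among these near-identical copies, so values of single Mup genes are uncertain.

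Because the cluster moved together, sequences before its start sites are shown from the RefSeq set on GRCm38.p6, all on the minus strand of chromosome 4. These start sites can differ from the gene positions given above, as in Mup17, whose motif lies inside the stated gene. Each line gives the 30 bases before the motif TATATAA and the motif in capitals, read 5′ to 3′ on the strand of the gene.
Mup17: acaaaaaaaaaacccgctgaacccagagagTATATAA
Mup15: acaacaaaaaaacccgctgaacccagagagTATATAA
Mup18: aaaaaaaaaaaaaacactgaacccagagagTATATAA
Mup3: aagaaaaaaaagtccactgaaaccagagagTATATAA
Mup21: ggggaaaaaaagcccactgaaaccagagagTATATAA
These windows are chr4:61595851-61595887 for Mup17, chr4:61439723-61439759 for Mup15, chr4:61674116-61674152 for Mup18, chr4:62087322-62087358 for Mup3 and chr4:62150843-62150879 for Mup21. Of the 37 bases, 36 were the same in Mup15 as in Mup17, 33 in Mup18, 31 in Mup3 and 30 in Mup21. Relative to the start site of the set, the motif began at -25 in Mup17 and Mup15, -28 in Mup18, -11 in Mup3 and -8 in Mup21. TATATAA lay in the 250 bases before the start for 9 of the 12 tested Mup genes in the set (75%) and for 2.45% of all 27025 genes.

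Genes whose liver level differs between the sexes moved with the Mup cluster. In libraries that by Xist and Ddx3y were all male, 14 of 26 tested male-biased genes fell and 0 rose, with a median of -0.64, and 9 of 19 tested female-biased genes rose and 1 fell, with a median of 0.78. Some Mup genes are also in the male-biased list. Without fenofibrate libraries 1 and 3 the counts were 8 and 0 for the male-biased genes and 6 and 0 for the female-biased genes. Cux2 (ENSMUSG00000042589, chromosome 5, 121856366 to 122050102), a transcription factor found in female liver, was at 0.202, 0.353, 0.675 and 0.372 CPM in HFD and 18.8, 4.74, 14.4 and 12.1 CPM with fenofibrate (log2 fold change 4.93 ± 0.47, adjusted p = 4.9e-05; Control mean 16.3 CPM). The HFD values are a few reads each, and fenofibrate library 2 was the lowest of its group. Cyp2b9 and Cyp2a22, female-biased P450 genes with close copies, were at 2.43, 7.89, 36.8 and 7.07 CPM in HFD and 109.9, 63, 111 and 130.2 CPM with fenofibrate and at 2.5, 1.65, 8.29 and 4.77 CPM in HFD and 24.1, 19.9, 32.2 and 31.4 CPM with fenofibrate. HFD library 3 was the highest of its group for both, and below every fenofibrate library (log2 fold change 2.93 ± 0.53, adjusted p = 0.00377; log2 fold change 2.64 ± 0.34, adjusted p = 0.00057). Fmo2 (1.14 ± 0.15), Trim24 (0.90 ± 0.14) and Cyp17a1 (1.71 ± 0.37) also rose, and Ugt2b38 fell (-1.80 ± 0.22). Growth hormone drives this sex difference in the mouse through the receptor Ghr and the kinase Jak2. Ghr (ENSMUSG00000055737, chromosome 15, 3317760 to 3583492) was at 588, 625, 556 and 541 CPM in HFD and 319, 391, 264 and 398 CPM with fenofibrate (log2 fold change -0.75 ± 0.12, adjusted p = 0.00242; with libraries 2 and 4 only, -0.54, adjusted p = 0.0551), and Jak2 fell slightly (-0.41 ± 0.11). The call of Jak2 was lost in 7 alternatives. Of 22 tested genes of the growth hormone and STAT5 pathway 1 rose and 3 fell (18.2% called, against 13.5% over all genes). Their median was -0.03, and without libraries 1 and 3 the counts were 1 and 0.

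**Figure D4:**
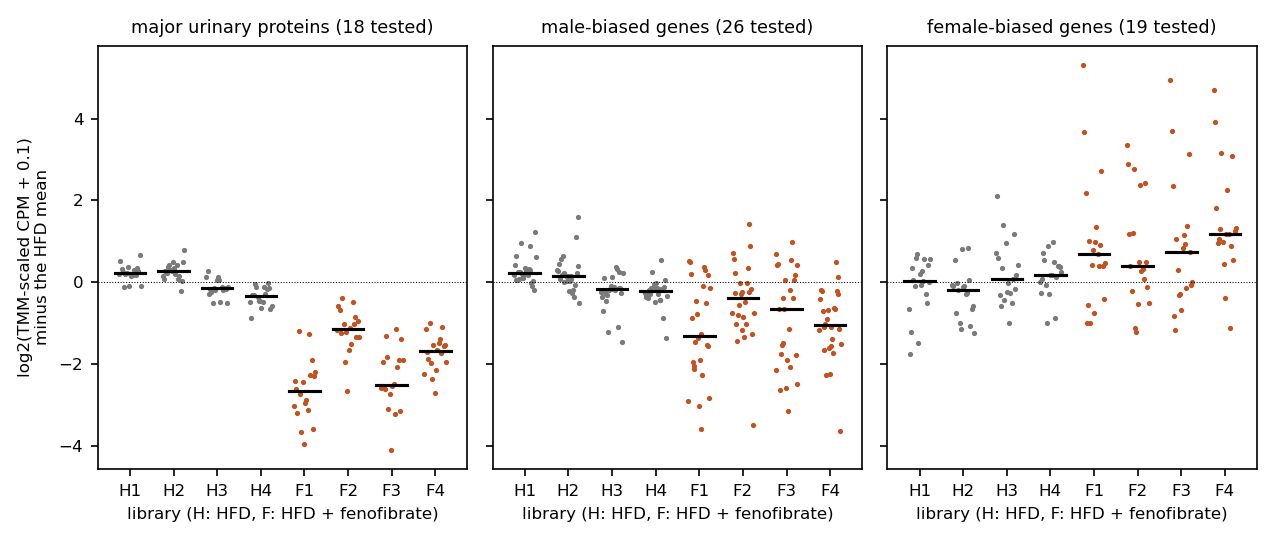
Log2(TMM-scaled CPM + 0.1) of each tested gene minus its HFD mean, by library, for 18 major urinary protein genes, 26 male-biased and 19 female-biased genes, with the median of each library as a bar. The Mup medians are -2.66, -1.15, -2.51 and -1.68 in fenofibrate libraries F1 to F4, and the female-biased medians are 0.70, 0.41, 0.74 and 1.18.

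Among enzymes that process drugs and esters, carboxylesterase and conjugation genes fell more often than they rose, and P450 genes split. Of 26 tested carboxylesterases and related oxidases 1 rose and 13 fell, with a median of -0.41, against 6.89% and 6.59% over all genes. Ces1f (ENSMUSG00000031725, chromosome 8, 93256236 to 93279747) was at 783, 606, 653 and 735 CPM in HFD and 277, 304, 242 and 393 CPM with fenofibrate (log2 fold change -1.19 ± 0.16, adjusted p = 0.00077; with libraries 2 and 4 only, -0.99, adjusted p = 0.0239), and Ces2c was at 31.1, 41.9, 20.2 and 29.8 CPM in HFD and 8.6, 8.16, 7.15 and 11.1 CPM with fenofibrate (log2 fold change -1.81 ± 0.27, adjusted p = 0.0012; with libraries 2 and 4 only, -1.66, adjusted p = 0.0439). In both the groups were well apart. Of 49 conjugation enzymes 3 rose and 14 fell, among them the glucuronosyltransferases Ugt2b1 (-1.54 ± 0.27), Ugt2b5 (-0.95 ± 0.18) and Ugt3a1 (-0.80 ± 0.13). P450 genes and their sensors split, with 9 of 43 rising and 10 falling. Cyp2c29, an abundant form, was at 4220.2, 3824, 4918 and 4166 CPM in HFD and 1556, 2022, 1682 and 2235 CPM with fenofibrate (log2 fold change -1.19 ± 0.15, adjusted p = 0.00057), and Cyp2c55 (-2.27 ± 0.20) and Cyp2d40 (-1.14 ± 0.13) fell, all passing without libraries 1 and 3. Cyp2e1, an ethanol-metabolizing P450 of cells around the central vein, rose by less (0.35 ± 0.10). Adh4 was at 251, 225, 182 and 196 CPM in HFD and 86.8, 101, 70.8 and 111 CPM with fenofibrate (log2 fold change -1.21 ± 0.18, adjusted p = 0.00112). Without libraries 1 and 3, 2 carboxylesterase and oxidase genes rose and 2 fell, 0 and 2 conjugation genes, and 1 and 3 P450 genes. The Cyp2c, Ces1 and Ugt2b genes have close copies, so their single values are uncertain.

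Metal-binding genes held one of the largest rises. Mt1 (ENSMUSG00000031765, chromosome 8, 94179082 to 94180327), a metallothionein that binds zinc and copper, was at 9.18, 7.66, 11.1 and 11.4 CPM in HFD and 53, 133, 74.5 and 50.2 CPM with fenofibrate (log2 fold change 2.98 ± 0.30, adjusted p = 8.6e-05), far below its Control mean of 319 CPM. Library 2 was the highest, and the change was 3.22, adjusted p = 0.000552 without libraries 1 and 3. The zinc importers Slc39a4 (0.77 ± 0.18) and Slc39a5 (1.71 ± 0.33) rose, and the manganese exporter Slc30a10 (-0.74 ± 0.13) and the heme carrier hemopexin, Hpx (-0.53 ± 0.14), fell. Of 28 genes of metals and iron 4 rose and 7 fell, against 6.89% and 6.59% over all genes. Lcn2, an iron-siderophore binder of the acute phase, was at 3.44, 3.3, 2.95 and 2.36 CPM in HFD and 19.1, 17.2, 10.4 and 8.57 CPM with fenofibrate (log2 fold change 2.19 ± 0.34, adjusted p = 0.00186). Of 34 antioxidant genes 3 rose and 5 fell. Without libraries 1 and 3 the counts were 1 and 0 for metals and iron, and edgeR called 0 antioxidant genes.

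Genes for plasma proteins that hepatocytes secrete fell more often than they rose. Of 37 complement genes 1 rose and 16 fell, against 6.89% and 6.59% over all genes. Their median was -0.36, and without libraries 1 and 3 the counts were 0 and 4. C9 (ENSMUSG00000022149, chromosome 15, 6445327 to 6498751), of the membrane attack complex, was at 606, 601, 576 and 508 CPM in HFD and 221, 275, 143 and 227 CPM with fenofibrate (log2 fold change -1.40 ± 0.16, adjusted p = 0.00024; with libraries 2 and 4 only, -1.18, adjusted p = 0.00149). Mbl1, a lectin that starts complement on microbial sugars, was at 241, 194, 182 and 219 CPM in HFD and 94.9, 125, 88.3 and 110.3 CPM with fenofibrate (log2 fold change -1.00 ± 0.15, adjusted p = 0.0012). In both genes each fenofibrate library was below each HFD library. The lectin pathway gene Colec10 (-0.64 ± 0.11) and the inhibitor C4bp (-0.80 ± 0.14) fell. Of 33 coagulation genes 2 rose and 5 fell, including F9 (-0.47 ± 0.11) and Fgg (-0.52 ± 0.14). Serpina12 (ENSMUSG00000041567, chromosome 12, 104028769 to 104044443), an insulin-sensitizing serpin, was at 135, 157, 93 and 139 CPM in HFD and 16, 44, 15.8 and 37.9 CPM with fenofibrate (log2 fold change -2.21 ± 0.30, adjusted p = 0.00077; with libraries 2 and 4 only, -1.68, adjusted p = 0.00611), and Serpina7, which carries thyroxine, fell (-1.63 ± 0.31), while Serpina3n rose (0.64 ± 0.12). In the list of acute phase and secreted proteins 4 of 43 rose and 8 fell. Without libraries 1 and 3 these counts were 1 and 1, and edgeR called 0 coagulation genes.

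Immune, matrix and growth lists held few calls. In each, 0% to 5.71% of tested members were called, against 13.5% over all genes (6.89% rose and 6.59% fell). Of 48 interferon-stimulated genes 0 rose and 1 fell, the GTPase Iigp1 (-0.87 ± 0.19), and of 31 genes of antigen presentation 0 rose and 1 fell, B2m (-0.63 ± 0.15). Among 30 genes of chemokines and inflammation edgeR called 0, and 6 were at an unadjusted p under 0.05, with 0 called by DESeq2 and 0 by limma-voom. Timp2 (0.59 ± 0.13) and Mmp14 (0.57 ± 0.13) were the 2 of 37 matrix genes that rose, and Ccnd3 (0.46 ± 0.11) and Cdt1 (0.79 ± 0.24) the 2 of 35 cell cycle genes. Summed Kupffer cell markers were 682 ± 229 CPM in HFD and 656 ± 154 CPM with fenofibrate (SD, n = 4). Markers of B and plasma cells were 58.1 ± 6.8 against 38.3 ± 5.98 CPM (two-sided exact permutation p = 0.0286, the smallest possible for groups of 4, and 0.2 adjusted over 21 measures). In bulk tissue, fewer cells of a type and less RNA per cell cannot be told apart.

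Mitochondrially encoded and lysosomal genes were called in a larger share than nuclear genes of the respiratory chain. All 12 tested genes of the mitochondrial genome had a log2 fold change below 0, with a median of -0.45, and 5 fell, including mt-Cytb (-0.53 ± 0.15) and mt-Nd2 (-0.46 ± 0.14). The calls of mt-Cytb and mt-Nd2 were lost in 8 and 11 alternatives, single left-out libraries among them, 2 genes of the list fell with a replicate block, and edgeR called 0 without libraries 1 and 3. Their share of counts was 10.6%, 8.78%, 8.87% and 8.83% in HFD and 7.6%, 8.75%, 7.29% and 7.24% with fenofibrate (two-sided exact permutation p = 0.0286, 0.2 adjusted over 21 measures). Fenofibrate library 2 was at the level of 3 of the HFD libraries. Of 79 nuclear genes of the respiratory chain 5 rose and 1 fell (7.59% called, below the 13.5% over all genes), 53 had a log2 fold change below 0, and the median was -0.17. Uqcrc1 (0.51 ± 0.09) and Cox6a1 (0.38 ± 0.09) were among the rises. The balance of this list changed with the fit, with 7 rises and 6 falls by DESeq2, 4 and 8 on the 8 libraries compared, and no call by edgeR without libraries 1 and 3. The inner membrane carrier Slc25a30 was at 27.3, 27.7, 22.5 and 30.4 CPM in HFD and 8.65, 7.68, 8.32 and 8.43 CPM with fenofibrate (log2 fold change -1.70 ± 0.14, adjusted p = 1.9e-05; with libraries 2 and 4 only, -1.74, adjusted p = 0.00079), the fall with the smallest adjusted p among named carriers. Lysosomal genes rose more often than they fell, with 12 and 4 of 55, for example Naglu (0.52 ± 0.11), Gusb (0.46 ± 0.12) and Atp6v0a1 (0.63 ± 0.15) up and Lamp2 (-0.53 ± 0.13) and Ctsh (-0.46 ± 0.12) down, and edgeR called 0 of them without libraries 1 and 3. Of 38 proteasome subunits 0 rose and 4 fell, and of 78 cytosolic ribosomal protein genes edgeR called 0 (15 were at an unadjusted p under 0.05, with 4 called by DESeq2 and 0 by limma-voom).

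Transcription factors and time-of-day genes moved modestly. The glucocorticoid receptor Nr3c1 was at 79, 71.7, 72.2 and 66.2 CPM in HFD and 54.7, 54.3, 51.6 and 56.1 CPM with fenofibrate, without overlap (log2 fold change -0.42 ± 0.09, adjusted p = 0.00764), and the thyroid receptor Thrb fell (-0.38 ± 0.10). Of 24 clock genes 4 rose and 1 fell: Per2 (0.83 ± 0.24), Per3 (1.27 ± 0.35), Cry2 (0.58 ± 0.14) and Csnk1d (0.35 ± 0.10) rose and Clock fell (-0.47 ± 0.14). These calls were lost in 7 alternatives for Per2 and Csnk1d, 6 for Per3, 3 for Cry2 and 9 for Clock, most of them single left-out libraries, and edgeR called 0 of the list without libraries 1 and 3. Per3 was at 4.18, 7.42, 9.88 and 3.78 CPM in HFD and 13.4, 8.04, 17.5 and 22 CPM with fenofibrate, with HFD libraries 2 and 3 above 1 and 4. The labels do not state the hour of tissue collection, and its part in these values was not tested. Fkbp5, a cochaperone that responds to glucocorticoids, was at 15, 53.5, 18 and 28.7 CPM in HFD and 53.3, 59.9, 53 and 78.1 CPM with fenofibrate (log2 fold change 1.08 ± 0.33, adjusted p = 0.0397), a call lost in 9 alternatives. Of 22 pericentral genes 2 rose and 4 fell, and of 22 periportal genes, several of them urea cycle genes, 6 rose and 3 fell. Over all genes 6.89% rose and 6.59% fell.

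The genes of largest change outside these groups were Sorbs3, Adam11, Dqx1, Peg3 and Slc16a5 among the rises and Tsc22d1 and Hectd2os among the falls. Sorbs3 (ENSMUSG00000022091, chromosome 14, 70180468 to 70207637), which encodes the adhesion protein vinexin, was at 22.1, 25, 25.5 and 23.5 CPM in HFD and 76.4, 54.2, 91.9 and 54.6 CPM with fenofibrate (log2 fold change 1.53 ± 0.16, adjusted p = 8.9e-05; with libraries 2 and 4 only, 1.18, adjusted p = 0.000552). Peg3, an imprinted gene, was at 7.9, 5.48, 7.67 and 4.71 CPM in HFD and 22.7, 11.2, 29.1 and 10.7 CPM with fenofibrate (log2 fold change 1.52 ± 0.29, adjusted p = 0.00483), highest in the libraries with muscle genes, and did not pass without them (0.77, adjusted p = 0.119). Slc16a5, a monocarboxylate transporter, rose to a level below Control (1.78 ± 0.26; Control mean 45.5 CPM). Tsc22d1, a transcriptional regulator, was at 178, 103, 106 and 143 CPM in HFD and 33.9, 55.7, 29.3 and 30.3 CPM with fenofibrate (log2 fold change -1.83 ± 0.21, adjusted p = 0.00024; with libraries 2 and 4 only, -1.62, adjusted p = 0.0109). The antisense transcript Hectd2os was at 14.7, 13.6, 12.1 and 9.3 CPM in HFD and 1.83, 2.16, 1.7 and 2.61 CPM with fenofibrate (log2 fold change -2.58 ± 0.20, adjusted p = 1.2e-05), and the labels do not state whether counting used strand. In Adam11 (1.69 ± 0.34) and Dqx1 (1.56 ± 0.29) the call was lost without libraries 1 and 3.

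**Figure D5:**
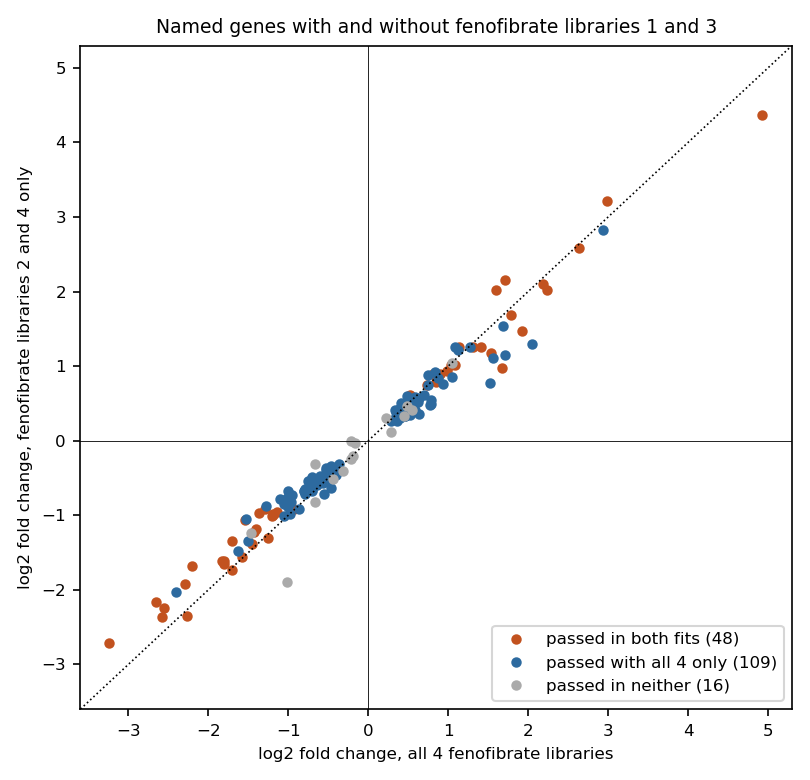
Log2 fold change of the 173 genes named here with all 4 fenofibrate libraries (x axis) and with libraries 2 and 4 only (y axis), with the line of equal values dotted. Orange points (48) passed in both fits, blue points (109) only with all 4 libraries, and grey points (16) in neither.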

How the data were processed

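Liver RNA of 8 of the 12 libraries was compared, with 4 per group, and the 4 Control libraries joined the gene filter, the scaling and the estimate of spread. The values are raw read counts per Ensembl gene, deposited by the authors in 2 tables that both hold the HFD libraries, per the file headers. HISAT2 2.0.5, StringTie 1.3.2d and HTSeq 0.6.0 are named in the submitters' processing notes, which state neither the annotation release nor the strand setting. Builds mm8 and mm9 are listed there, yet 92.5% of the identifiers shared with GENCODE M21 had its GRCm38 position. The authors' own fold changes and p-values were not used.

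The tables were joined by identifier, and a gene listed in only 1 table was given counts of 0 in the other. Of 25164 genes, 13477 passed filterByExpr and held 99.87% of the counts. They were fitted with edgeR 4.0.16 in R 4.3.3 (TMM scaling, quasi-likelihood test, 1 coefficient per group, contrast of fenofibrate minus HFD, Benjamini-Hochberg adjusted p under 0.05). SE is the size of the log2 fold change divided by the square root of F. Marker sums and shares are CPM or percent of total counts without TMM scaling, compared by two-sided exact permutation tests. The common biological coefficient of variation was 0.155, and chi-square per gene between libraries of a group was 13.9 to 34.4, so the spread exceeded counting error. Tested on simulated counts of 13482 genes, the fit recovered 35.8%, 86.6% and 98.5% of genes changed 1.5-fold, 2-fold and 4-fold, with 3.29% false calls. The simulation gave every gene the same spread and no library a shift of its own, so these rates need not hold for the real libraries.

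The members and the 55 gene lists and 16 marker lists were chosen with earlier results of these data known, so lists are described by counts and medians and were not tested. Named genes are the 15 largest rises and 15 largest falls among called genes with a mean of at least 10 CPM in the higher group, no overlap and a named symbol, up to 6 called members of a list by adjusted p (the 2 most abundant where none was called), and a fixed panel. Of these, 173 are printed, and some others are not reported here. Alternatives were other scaling, filters and tools (DESeq2 1.42.0, limma-voom of limma 3.58.1), a test against 1.2-fold, a threshold of 0.01, left-out genes or libraries and the replicate number as a block. Libraries with equal replicate numbers were not treated as pairs: their deviations from the group means correlated with r of -0.085, -0.116, 0.103 and 0.018. Promoter sequences are from RefSeq on GRCm38.p6, matched by symbol.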

Additional observations from a re-analysis of the deposited data

Results flagged for a closer look

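Single libraries stood apart from the other 3 of their group, by the gap to the nearest library relative to the group's range (Dixon's test for 4 values at the 95% level, which chance passes in about 1 in 20 groups). The test was run in both groups for 173 genes and 21 measures, so many of these flags may be due to chance. Fenofibrate library 1 stood apart in pancreatic acinar markers (2465 CPM, next library 14.1) and in smooth muscle markers (56.1 CPM, next 10.5). HFD library 1 stood apart in sinusoidal endothelial markers (246 CPM, next 496) and in its share of mitochondrially encoded counts (10.6%, next 8.87%).

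HFD library 3 was the highest of its group, toward the fenofibrate level, in Cyp2b9 (36.8 CPM, next 7.89), Vldlr (4.23, next 1.75), Adam11 (15.2, next 5.2) and Got2 (351, next 322), and the lowest in Rdh9 (6.08, next 7.89). Fenofibrate library 2 lay nearest to the HFD range in G0s2 (164 CPM, next 60.3), Clock (44.2, next 34.4), Pltp (39.2, next 62.3), Crtc2 (36, next 46.3) and Gaa (102, next 131), and farthest from it in Ahcy (3120.3, next 2425). Fenofibrate library 4 stood apart in Pex11a (121 CPM, next 96.6), Acad11 (222, next 199.8) and Plin3 (33.6, next 44.1).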

How the results depend on the processing

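Counts of genes that rose and fell were 928 and 888. They stayed within 1.5 times of these under other scaling by relative log expression or upper quartile, both other filters, the fit on the 8 libraries compared, DESeq2, limma-voom, and with the 20 most abundant genes or the tissue markers left out. With a replicate block they were 805 and 869, and the numbers did not pair the libraries: 2 of 8 correlated best with their own number. On library totals they were 2059 and 451, against 1.2-fold 157 and 222, at an adjusted p under 0.01 200 and 262, and without fenofibrate libraries 1 and 3 55 and 69, where fewer samples enter. Leaving out 1 library gave 282 to 1191 rises and 328 to 1192 falls; the cause was not tested. Of 157 called named genes, 46 passed under every one of 21 settings and 0 reversed, and of 16 not called 6 passed under at least 1. Depth of 15797016 to 18514481 counts limits the rarest genes, such as Cidea.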

Other observations

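Lists not described above held 3 to 9 calls each, and edgeR called none of the glycogen and heat shock genes without fenofibrate libraries 1 and 3. For comparison with the counts below, 6.89% of all genes tested rose and 6.59% fell. Of 16 tested genes of pantetheinases and coenzyme A synthesis 0 rose and 3 fell, Vnn1, Nudt7 and Pank1, the rate-limiting kinase of coenzyme A synthesis (log2 fold change -0.71 ± 0.12, adjusted p = 0.00241). Pank1 was at 297, 242, 231 and 322 CPM in HFD and 171, 156, 151 and 189 CPM with fenofibrate, with no overlap. Of 18 glycogen genes 2 rose and 2 fell, among them the liver glycogen synthase Gys2 with a fall (-0.42 ± 0.12) and the lysosomal glucosidase Gaa with a rise (0.56 ± 0.12). Of 32 alcohol and aldehyde dehydrogenases 4 rose and 5 fell, including Aldh1a7 (-1.01 ± 0.20) with a fall and the retinol dehydrogenase Rdh9 with a rise (0.87 ± 0.17).

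Chaperone genes also split. Of 30 heat shock genes 3 rose and 4 fell. Hsp90aa1 was at 160, 137, 130.1 and 113 CPM in HFD and 77.6, 97.9, 68.8 and 82 CPM with fenofibrate (log2 fold change -0.73 ± 0.21, adjusted p = 0.0317). The cochaperone gene Dnaja1 fell (-0.70 ± 0.18), and the transcription factor Hsf1 (0.34 ± 0.10) and the mitochondrial protease Lonp1 (0.45 ± 0.11) rose. Of 40 genes of endoplasmic reticulum stress and the amino acid response 2 rose and 3 fell, among them the chaperone Canx (-0.52 ± 0.10). Of 41 mitochondrial carriers 5 rose and 2 fell, and of 27 monocarboxylate and organic ion transporters 2 rose and 5 fell.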
